A study of Mus musculus with 20 samples.

Results

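The genes that take up, export, store and sense iron were examined in the brains of *Winnie* and C57BL/6 mice as 10 genes, chosen by their gene names from the 17211 genes of the deposited expression table, and all 10 were listed there. They were the uptake genes *Tfrc* and *Slc11a2*, the export gene *Slc40a1* with the ferroxidases *Cp* and *Heph*, the ferritin subunits *Fth1* and *Ftl1*, the iron sensors *Aco1* and *Ireb2*, and the heme-degrading enzyme *Hmox1*. The study asked how gene expression in the brain differs between mice with and without chronic intestinal inflammation. *Winnie* mice carry a missense mutation of the mucin gene *Muc2* in every cell and develop colitis spontaneously, and the C57BL/6 mice came from the same breeding colony and carry the wild-type gene. Whole-brain RNA of 10 *Winnie* and 10 C57BL/6 mice was sequenced, one library per mouse, at 14 weeks of age and with no treatment named in the labels, and each group held 5 mice labelled female and 5 labelled male. *Muc2* was not among the 17211 listed genes, so the genotype itself could not be checked in the RNA.

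Iron enters most brain cells bound to transferrin through the transferrin receptor, and the divalent metal transporter moves it from the endosome into the cytosol. Ferroportin is the only known iron exporter of mammalian cells and works with the copper ferroxidases ceruloplasmin and hephaestin, and iron that is neither used nor exported is kept in ferritin shells built of heavy and light chains. The pair of iron regulatory proteins encoded by *Aco1* and *Ireb2* bind a hairpin in messenger RNAs, the iron-responsive element, when iron is scarce. Bound near the start of a message they block translation, as in the ferritins and ferroportin, and bound in the 3′ untranslated region (UTR) of the transferrin receptor message they slow its decay. Ferritin production is therefore set largely at translation, which RNA levels do not show.

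The hairpins are shown because the sensors recognise such an element and its side of the coding sequence sets which way they act. The UTRs of GENCODE M21 transcripts on GRCm38 were searched on the sense strand for a C, any 5 bases, a loop CAGTGN and 5 bases that pair with the first 5 (G to T pairs allowed). A match was present in the 5′ UTR of 0.164% of the 14604 genes searched and in the 3′ UTR of 0.760%. Of the 10 iron genes, 4 held a match, all on the strand of the gene, and each is given 5′ to 3′ as 29 bases with the loop in capitals.
*Fth1*, 5′ UTR, chr19:9982732-9982760, plus strand: ttcctgcttcaaCAGTGCttgaacggaac
*Ftl1*, 5′ UTR, chr7:45459779-45459807, minus strand: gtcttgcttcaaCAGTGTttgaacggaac
*Slc40a1*, 5′ UTR, chr1:45925465-45925493, minus strand: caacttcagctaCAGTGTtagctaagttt
*Tfrc*, 3′ UTR, chr16:32631219-32631247, plus strand: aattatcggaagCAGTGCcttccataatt
*Tfrc*, 3′ UTR, chr16:32631598-32631626, plus strand: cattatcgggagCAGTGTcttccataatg
*Tfrc*, 3′ UTR, chr16:32631663-32631691, plus strand: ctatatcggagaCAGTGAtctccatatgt
*Tfrc*, 3′ UTR, chr16:32631710-32631738, plus strand: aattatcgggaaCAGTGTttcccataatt
Both ferritin genes carried the same 5 bases on either side of the loop, and *Tfrc* carried 4 hairpins in its 3′ UTR. No match was found in the UTRs of *Slc11a2*, *Cp*, *Heph*, *Aco1*, *Ireb2* or *Hmox1*, which says only that these letters were not in the annotated UTRs.

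The deposited values were library-scaled read counts (CPM), in which every library has the same total, and the reads behind each value could be recovered as whole numbers. The libraries held 16540303 to 23923769 reads, and each of the 10 genes had at least 52 reads in every library. Levels of *Xist*, expressed from the inactive X chromosome, and of the Y-linked *Ddx3y* went against the labelled sex in 9 of 10 C57BL/6 libraries and in 0 of 10 *Winnie* libraries, so results are also given with *Ddx3y* as a covariate. Library numbers ran from 1 to 10 for C57BL/6 and from 11 to 20 for *Winnie* mice, so library order and genotype cannot be told apart. The tissue label was borne out by its markers, with summed levels of 6 neuronal markers between 4767 and 5597 CPM and of 6 oligodendrocyte markers between 6359 and 8084 CPM over all libraries.

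Of the 10 iron genes, 1 passed the test between genotypes, the ferritin light chain *Ftl1*, which fell in *Winnie* brains. The test was limma on log2(CPM + 0.5) with a gene called at a Benjamini-Hochberg false discovery rate (FDR) under 0.05 over all 17211 genes. It called 2.52% of all genes in either direction and 1.01% as lower in *Winnie* brains, so 1 of 10 is too small a count to set the list apart. At an unadjusted p under 0.05, 6 of the 10 genes were reached, 3 with higher means in *Winnie* brains (*Slc11a2*, *Cp* and *Heph*) and 3 with lower means (*Fth1*, *Ftl1* and *Slc40a1*), against 17.6% of all genes. The median log2 fold change of *Winnie* over C57BL/6 was 0.043 over the 10 genes and 0.0022 over all genes. At an FDR under 0.001 with a change of at least 1.5-fold in either direction, limma called 0 of the 10 genes and 0 of all genes.

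**Figure D1:**
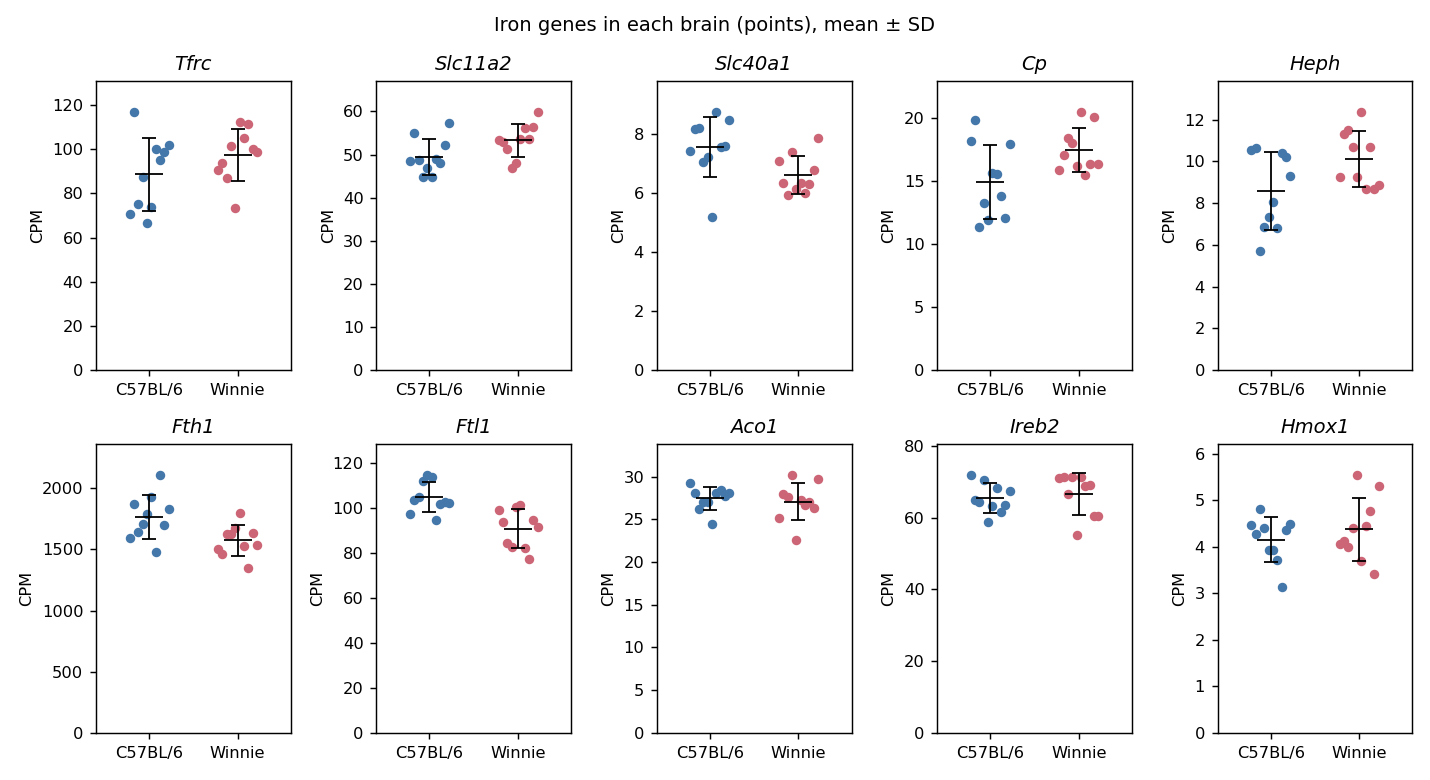
Expression of the 10 iron genes in each brain. The vertical axes show CPM from 0, points are single mice, and black bars are the mean ± SD of 10 mice per genotype. *Ftl1* lay between 94.7 and 115 CPM in C57BL/6 and between 77.1 and 101 CPM in *Winnie* brains, and the groups overlapped for every gene shown.

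Ferritin holds iron in a soluble form, the heavy chain oxidising it and the light chain helping to form the mineral core. *Ftl1* (chr7:45457944-45459884, minus strand) was measured in C57BL/6 mice 1 to 10 at 97.4, 103, 105, 112, 115, 114, 94.7, 102, 103 and 102 CPM. In *Winnie* mice 1 to 10 it was 99.3, 93.8, 84.6, 82.6, 101, 101, 82.0, 77.1, 94.7 and 91.7 CPM. All 10 *Winnie* brains lay below the C57BL/6 median of 103 CPM and 7 lay below the lowest C57BL/6 brain, while 8 C57BL/6 brains lay above the highest *Winnie* brain, so the groups overlapped in a narrow band. Mean levels were 105 ± 6.72 CPM in C57BL/6 and 90.8 ± 8.63 CPM in *Winnie* brains (SD, n = 10 each). The log2 fold change was -0.21 (SE 0.049, 95% CI -0.31 to -0.11, limma FDR = 0.0209), and a two-sided permutation test of the difference in mean log2(CPM + 0.5) with 100000 resamples gave p = 0.00064. With *Ddx3y* as a covariate the fold change was -0.21 (limma FDR = 0.0225). Without C57BL/6 mouse 5, the highest of its group, *Ftl1* was no longer called (log2 fold change -0.19, limma FDR = 0.0514).

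*Ftl1* has a transcript of 968 bases, the shortest of the 10, and fold changes moved with transcript length across all genes. The median log2 fold change was -0.079 over the 793 genes with principal transcripts up to 1000 bases, of which 3.03% were called lower, and it was -0.041, -0.0040 and 0.042 in the classes 1000 to 2000, 2000 to 4000 and over 4000 bases. After GC content and transcript length were regressed out within each library, an alternative added after seeing the data, the log2 fold change of *Ftl1* was -0.13 and the gene was not called (limma FDR = 0.159). The GC content of *Ftl1*, 57.7%, was also the highest of the 10, and the parts of GC content and length in this correction were not separated. What sets the trend with length was not tested.

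*Ftl1* also has a processed copy elsewhere in the genome, listed as *Gm10116*, whose reads cannot be cleanly separated from those of the gene where the sequences are identical. *Gm10116* stood at 11.1% ± 1.55 of the *Ftl1* CPM in C57BL/6 and 12.3% ± 1.88 in *Winnie* brains (SD, n = 10 each). When both were summed, the log2 fold change was -0.19 (permutation test, p = 0.00046). The counting of reads by strand is not given in the sources used here, and *Ftl1* overlaps an unclassified gene on the opposite strand and a miRNA gene on its own.

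*Fth1* (chr19:9980598-9985098, plus strand), the heavy chain, was the most abundant of the 10 genes. It ranged from 1477 to 2110 CPM (median 1746) in C57BL/6 and from 1348 to 1796 CPM (median 1579) in *Winnie* brains. The groups overlapped over most of their range, with 9 of 10 *Winnie* brains below the C57BL/6 median and 4 C57BL/6 brains above every *Winnie* brain. Its log2 fold change of -0.16 (SE 0.053, 95% CI -0.27 to -0.054) did not pass the test over all genes (limma FDR = 0.0938; permutation p = 0.0127). Without C57BL/6 mouse 7 it was called, at a log2 fold change of -0.19 (limma FDR = 0.0376). *Fth1* has a transcript of 1494 bases, and with GC content and length corrected its fold change was -0.12 (limma FDR = 0.238). Its copy *Fth-ps2* held 0.0597% of the *Fth1* CPM or less in every library. Per kilobase of transcript, *Fth1* exceeded *Ftl1* by a ratio of 10.9 ± 1.09 in C57BL/6 and 11.3 ± 0.949 in *Winnie* brains (SD, n = 10 each), which differ by less than 1 SD. Whole brain was measured, so fewer cells of a type and less RNA per cell cannot be told apart.

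**Figure D2:**
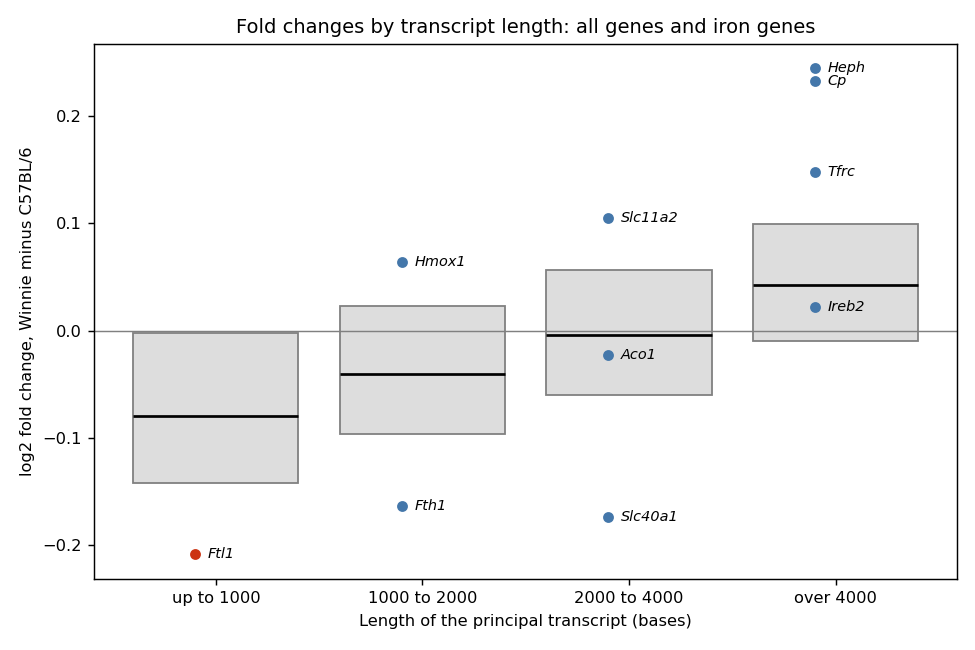
Log2 fold changes (*Winnie* minus C57BL/6) by length class of the principal transcript in bases. Grey boxes span the quartiles of all genes in a class, black lines are class medians (-0.079, -0.041, -0.0040 and 0.042), and points are the iron genes, red where called. *Ftl1*, *Fth1* and *Slc40a1* lie below the boxes of their classes, and *Hmox1*, *Slc11a2*, *Tfrc*, *Cp* and *Heph* lie above theirs.

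On the uptake side, *Tfrc* (chr16:32608920-32632794, plus strand) encodes the transferrin receptor. It varied widely between mice, from 66.5 to 117 CPM (median 91.4) in C57BL/6 and from 73.5 to 112 CPM (median 99.6) in *Winnie* brains. The coefficient of variation was 18.7% in C57BL/6 and 12.1% in *Winnie* brains, and the groups overlapped almost fully. Its log2 fold change of 0.15 (SE 0.10, 95% CI -0.061 to 0.36) did not pass the test (limma FDR = 0.471; permutation p = 0.167). The interval still allows a rise of 0.36 on the log2 scale, so a modest difference was not detectable with this spread.

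*Slc11a2* (chr15:100387898-100425072, minus strand), the divalent metal transporter, ranged from 44.7 to 57.3 CPM (median 48.6) in C57BL/6 and from 47.0 to 59.9 CPM (median 53.6) in *Winnie* brains. Of the *Winnie* brains, 8 lay above the C57BL/6 median. Between genotypes the log2 fold change was 0.10 (SE 0.048, 95% CI 0.0061 to 0.20), with an unadjusted limma p of 0.0382 and an FDR of 0.250 (permutation p = 0.0511). *Slc11a2* overlaps *Gm5475* on the opposite strand.

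*Slc40a1* (chr1:45908068-45926523, minus strand) encodes ferroportin. It was a low-level transcript in whole brain, from 5.19 to 8.73 CPM (median 7.56) in C57BL/6 and from 5.91 to 7.85 CPM (median 6.33) in *Winnie* brains. Most *Winnie* brains were low, with 9 of 10 below the C57BL/6 median, but the single lowest value was a C57BL/6 brain. The log2 fold change was -0.17 (SE 0.075, 95% CI -0.33 to -0.020, limma FDR = 0.216; permutation p = 0.0320). In contrast to the ferritins, correcting for GC content and transcript length moved it little (-0.19, limma FDR = 0.151).

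The ferroxidases oxidise iron as it leaves the cell so that transferrin can take it up. *Cp* (chr3:19957054-20009145, plus strand), ceruloplasmin, ranged from 11.4 to 19.8 CPM (median 14.6) in C57BL/6 and from 15.5 to 20.4 CPM (median 16.7) in *Winnie* brains. All 10 *Winnie* brains lay above the C57BL/6 median, and 5 C57BL/6 brains lay below the lowest *Winnie* brain. The log2 fold change of 0.23 (SE 0.086, 95% CI 0.054 to 0.41) did not pass the test (limma FDR = 0.145; permutation p = 0.0285). The gene overlaps *Hps3* on the opposite strand.

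*Heph* (chrX:96455359-96574485, plus strand), hephaestin, showed the widest difference in means of the 10 genes on the log2 scale. It ranged from 5.69 to 10.7 CPM (median 8.67) in C57BL/6 and from 8.66 to 12.4 CPM (median 9.97) in *Winnie* brains. The C57BL/6 brains were spread out, with 5 below every *Winnie* brain, and 5 *Winnie* brains lay above every C57BL/6 brain. The log2 fold change was 0.24 (SE 0.10, 95% CI 0.037 to 0.45, limma FDR = 0.193; permutation p = 0.0432). As an X-linked gene it was also read with *Ddx3y* as a covariate, where the fold change was 0.25 (limma FDR = 0.189). It overlaps *Hsf3* on the opposite strand and the processed pseudogenes *Gm14935* and *Rpl17-ps8* on its own strand.

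The sensors had the smallest differences in mean log2 level of the 10 genes. *Aco1* (chr4:40143081-40198338, plus strand), whose protein is either a cytosolic aconitase or an iron regulatory protein, ranged from 24.5 to 29.3 CPM (median 27.9) in C57BL/6 and from 22.6 to 30.2 CPM (median 27.1) in *Winnie* brains. Its log2 fold change was -0.023 (SE 0.047, 95% CI -0.12 to 0.073, limma FDR = 0.851; permutation p = 0.608). *Ireb2* (chr9:54863789-54912530, plus strand), the second iron regulatory protein, which is controlled mainly by protein degradation, ranged from 58.7 to 72.0 CPM (median 64.6) and from 55.3 to 71.3 CPM (median 69.0). Its log2 fold change was 0.022 (SE 0.048, 95% CI -0.076 to 0.12, limma FDR = 0.865; permutation p = 0.671). For both genes the intervals reach a change of 0.12 on the log2 scale, downward for *Aco1* and upward for *Ireb2*, and their coefficients of variation in C57BL/6 brains, 4.89% and 6.25%, were the lowest of the 10 genes. In *Winnie* brains they were 7.98% and 8.70%, above those of *Slc11a2* (7.22%) and *Fth1* (7.95%).

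*Hmox1* (chr8:75093621-75100589, plus strand), the inducible heme oxygenase that frees iron from heme, was rare in both genotypes. It ranged from 3.14 to 4.81 CPM (median 4.32) in C57BL/6 and from 3.41 to 5.55 CPM (median 4.26) in *Winnie* brains, on 52 to 115 reads per library. The medians and the means differed in direction, and the log2 fold change of 0.063 (SE 0.083, 95% CI -0.11 to 0.23) did not pass the test (limma FDR = 0.749; permutation p = 0.438). With GC content and length corrected, the log2 fold changes of *Aco1*, *Ireb2* and *Hmox1* were -0.036, -0.025 and 0.10, none of them called.

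**Figure D3:**
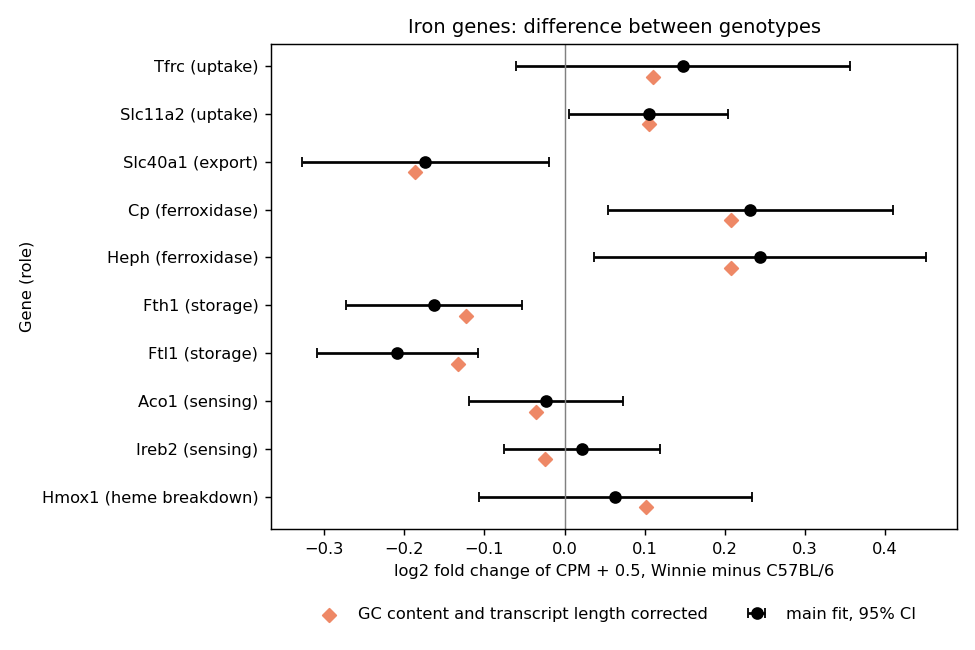
Log2 fold change of each iron gene, *Winnie* minus C57BL/6, as the limma estimate with its 95% CI (black) and after correction for GC content and transcript length (orange diamonds). The correction moves *Ftl1* from -0.21 to -0.13 and leaves *Slc40a1*, *Cp* and *Heph* at -0.19, 0.21 and 0.21.

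Levels of the genes relative to each other were compared per kilobase of transcript. In C57BL/6 brains the order was *Fth1* at 1180 ± 121 CPM per kilobase, *Ftl1* at 108 ± 6.94, *Tfrc* at 18.1 ± 3.39, *Slc11a2* at 16.4 ± 1.38, *Ireb2* at 11.3 ± 0.709, *Aco1* at 7.17 ± 0.350, *Cp* at 3.71 ± 0.728, *Hmox1* at 2.65 ± 0.306, *Slc40a1* at 2.24 ± 0.297 and *Heph* at 1.81 ± 0.390 (SD, n = 10). The ranges of mean ± SD overlapped between *Tfrc* and *Slc11a2*, between *Hmox1* and *Slc40a1*, and between *Slc40a1* and *Heph*. These neighbours were not compared within each mouse, so their order was not tested. In *Winnie* brains *Hmox1* (2.79 ± 0.431), *Heph* (2.13 ± 0.282) and *Slc40a1* (1.96 ± 0.191) were the lowest, with *Heph* and *Slc40a1* in exchanged places and each range overlapping its neighbour's.

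Covariation within genotypes was examined after the genotype means were subtracted. Among the 45 pairs of iron genes, 0 passed an adjusted p under 0.05 (permutation test, 100000 resamples), with 7 pairs at an unadjusted p under 0.05. The 2 uptake genes *Tfrc* and *Slc11a2* had the highest correlation (Pearson r = 0.59, permutation p = 0.00653, adjusted p = 0.221; Spearman rho = 0.64, permutation p = 0.00310, adjusted p = 0.139), and r was 0.51 without the 2 mice farthest from the median of *Tfrc*. The 2 ferritin genes had r = 0.47 (permutation p = 0.0370, adjusted p = 0.246; rho = 0.43, permutation p = 0.0613, adjusted p = 0.389), and r was 0.53 without the 2 mice farthest from the median of *Fth1*. The remaining pairs at an unadjusted p under 0.05 mostly joined genes of different roles. They were *Ftl1* with *Aco1* (r = -0.54), *Cp* with *Heph* (0.54), *Slc40a1* with *Aco1* (0.53), *Slc11a2* with *Slc40a1* (0.49) and *Tfrc* with *Aco1* (0.46). Without the 2 mice farthest from the median of the gene named first, r was -0.67, 0.39, 0.27, 0.33 and 0.27 in the same order.

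The same genes were compared with 8 lists of cell type markers, which gave 80 pairs, of which 1 had an adjusted p under 0.05. *Cp* followed the level of 6 endothelial markers (Pearson r = 0.81, permutation p = 3.0e-05, adjusted p = 0.0024; Spearman rho = 0.76, permutation p = 0.00012, adjusted p = 0.0096; n = 20). The correlation was 0.87 within C57BL/6 and 0.60 within *Winnie* brains, and r was 0.69 without the 2 mice farthest from the median marker level. *Cp* also had r = 0.67 with the level of 6 astrocyte markers, which narrowly did not pass (permutation p = 0.00144, adjusted p = 0.0576; Spearman rho = 0.66, permutation p = 0.00188, adjusted p = 0.0752). The astrocyte correlation was 0.86 within C57BL/6 and 0.34 within *Winnie* brains, and 0.63 without the 2 farthest mice. The summed level of the endothelial markers was 150 to 211 CPM in C57BL/6 and 167 to 201 CPM in *Winnie* brains. Of these markers 5 of 6 had higher means in *Winnie* brains with none of the 5 called, and 1, the tight junction gene *Cldn5*, fell (log2 fold change -0.47, limma FDR = 0.00331). The part of the endothelial level in the *Cp* difference was not tested.

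**Figure D4:**
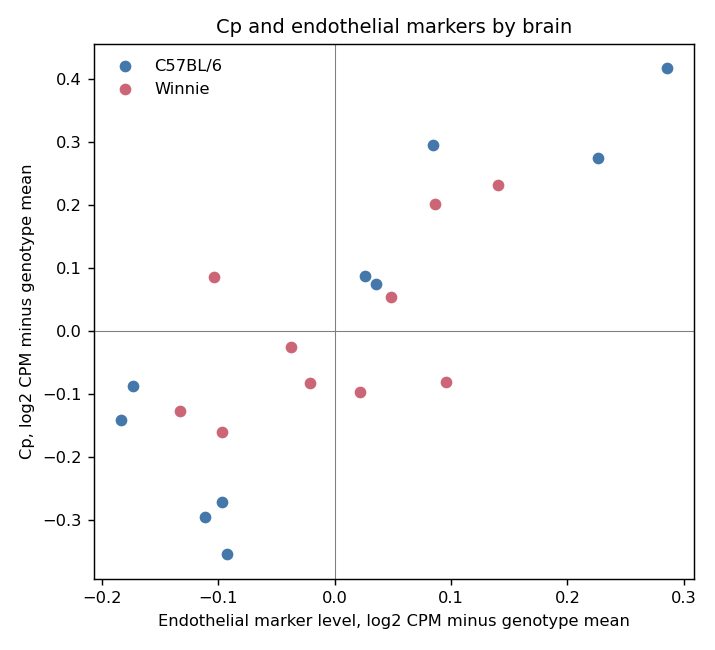
*Cp* against the mean level of 6 endothelial markers in each brain, both as log2(CPM + 0.5) minus the mean of the genotype. Points are single mice coloured by genotype, and they rise together (Pearson r = 0.81, n = 20).

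The other marker lists gave the cellular background of these values. No marker of neurons, oligodendrocytes, astrocytes, microglia, choroid plexus, red blood cells or fibroblasts was called. Oligodendrocytes and microglia are the cells richest in ferritin in the brain. Their summed markers were 6359 to 8084 CPM in C57BL/6 and 6376 to 7647 CPM in *Winnie* brains for oligodendrocytes, with 5 of 6 markers lower and *Mbp*, the most abundant, at a log2 fold change of -0.049 (limma FDR = 0.554). For microglia they were 276 to 308 CPM and 253 to 328 CPM, with 5 of 6 lower and *Csf1r* at -0.016 (limma FDR = 0.895). No marker of either list was at 0 in any library, and their part in the ferritin difference was not tested. *Fth1* and the oligodendrocyte level had r = 0.46 within genotypes (permutation p = 0.0403, adjusted p = 0.293; rho = 0.44, permutation p = 0.0554, adjusted p = 0.268), and r was 0.43 without the 2 mice farthest from the median marker level. *Ftl1*, the called gene, had r = -0.11 with the oligodendrocyte level. With the microglial level r was 0.021 for *Fth1* and 0.17 for *Ftl1*. *Tfrc* (0.55) and *Heph* (0.48) had a higher r with the oligodendrocyte level than *Fth1*. None of these pairs had an adjusted p under 0.05. Blood left in the vessels contributes red cell transcripts. Their 5 markers summed to 93.6 to 208 CPM (median 115) in C57BL/6 and 40.6 to 150 CPM (median 118) in *Winnie* brains. All 5 had lower means in *Winnie* brains, with *Hbb-bs* at a log2 fold change of -0.20 (limma FDR = 0.707). The median of *Hbb-bs* was instead higher in *Winnie* brains, at 56.6 CPM against 52.5 CPM. The astrocyte, neuron, choroid plexus and fibroblast lists were led by *Slc1a2* (0.049, limma FDR = 0.544), *Snap25* (-0.030, limma FDR = 0.768), *Ttr* (-0.22, limma FDR = 0.338) and *Igf2* (0.029, limma FDR = 0.920), and the endothelial list by *Flt1* (0.091, limma FDR = 0.613), each given as a log2 fold change.

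The wider machinery of iron and heme was read from a list of 71 further genes, of which 62 were found under the names searched. Transferrin was searched as *Tf* and not found under that name. It was therefore not read, which does not show that it was absent. Of these 62 genes 1 rose, 0 fell and 61 did not pass the test, beside 2.52% of all genes called. At an unadjusted p under 0.05 there were 9 with higher and 4 with lower means, 13 of 62 genes beside 17.6% of all genes, and the median log2 fold change over the list was 0.00010. The gene that rose was *Epas1*, a hypoxia-inducible transcription factor whose message is also known to carry an iron-responsive element, although the motif above was not in its annotated UTRs.

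*Epas1* ranged from 155 to 219 CPM (median 182) in C57BL/6 and from 186 to 228 CPM (median 212) in *Winnie* brains. Its values were higher in all 10 *Winnie* brains than the C57BL/6 median, with overlap between the groups. The log2 fold change was 0.20 (SE 0.051, 95% CI 0.092 to 0.30, limma FDR = 0.0355; permutation p = 0.00281). The call was lost when any 1 of 11 libraries was left out, namely C57BL/6 mice 3, 4, 5, 8 or 9 or *Winnie* mice 3, 4, 5, 6, 8 or 9, with an FDR up to 0.0806, and after correction for GC content and length (log2 fold change 0.16, limma FDR = 0.0737). *Alas2*, *Cdc14a*, *Cdc42bpa* and *App*, whose messages are also known to carry an iron-responsive element, were not called.

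**Figure D5:**
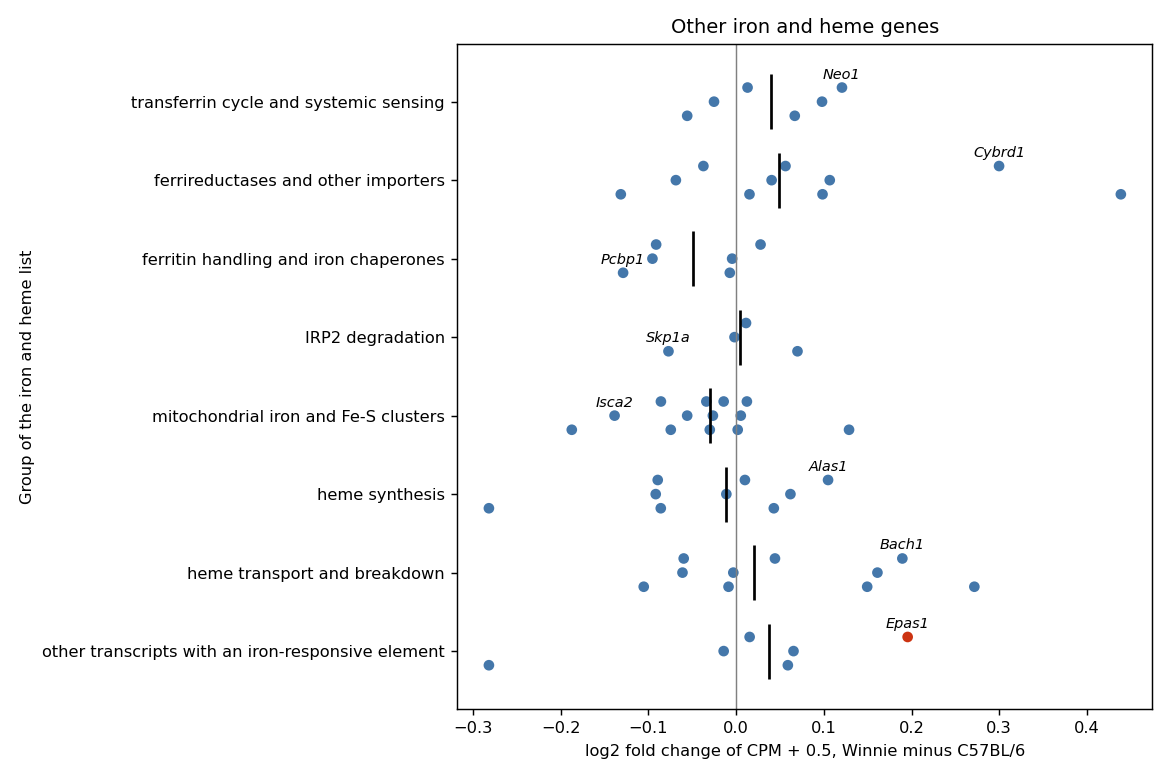
Log2 fold changes (*Winnie* minus C57BL/6) of the other iron and heme genes by group of the list. Points are genes, red where called, black lines are group medians, and the gene with the smallest p in each group is named. *Epas1* at 0.20 is the only gene called, and the group medians lie between -0.049 and 0.048.

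In each group of the list other than that of *Epas1* the listed gene with the smallest p is given, and none of these passed the test. *Neo1*, a receptor that supports hepcidin signalling, had a log2 fold change of 0.12 (limma FDR = 0.0552), which was 0.058 with GC content and length corrected (limma FDR = 0.261). *Cybrd1*, a ferrireductase that prepares iron for the divalent metal transporter, had a log2 fold change of 0.30 (limma FDR = 0.0811). *Pcbp1*, a chaperone that delivers iron to ferritin, had -0.13 (limma FDR = 0.0817), and 5 of the 6 listed genes of its group had means below those of C57BL/6 brains. *Skp1a*, part of the ubiquitin ligase that degrades the *Ireb2* protein, had -0.077 (limma FDR = 0.355). *Isca2*, which builds mitochondrial iron-sulphur clusters, had -0.14 (limma FDR = 0.159), or -0.070 with the same correction (limma FDR = 0.483), and 9 of the 13 genes of that group had lower means. Over all genes 49.0% had a log2 fold change below 0. The share was 75.4% for transcripts up to 1000 bases, 66.9% for 1000 to 2000, 52.1% for 2000 to 4000 and 29.1% for those over 4000 bases. The counts of these groups of 6 and 13 genes were not tested, and the transcript lengths of their genes were not compared. *Alas1*, the first enzyme of heme synthesis outside red cells, had 0.10 (limma FDR = 0.148). *Bach1*, the heme-sensing repressor of *Hmox1* and of the ferritin genes, had 0.19 (limma FDR = 0.0541), with values of 12.5 to 16.6 CPM in C57BL/6 and 14.6 to 18.2 CPM in *Winnie* brains.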

How the data were processed

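The authors sequenced polyA-selected brain RNA as paired-end reads, processed them with the RNAsik pipeline on GRCm38, counted reads per gene with FeatureCounts and deposited CPM from Degust, which scales every sample to 1 common total over the 17211 listed genes. The aligner and the strand setting are not given in the sources used here. Fewer brains are reported in the study than the 20 libraries labelled, and these are not named, so all 20 were used, grouped by labelled genotype. The labels name separate mice.

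The 10 genes, the iron and heme list, the marker lists and the tests were chosen with earlier results of these data known. The step between CPM values gave whole reads for 100% of values (tolerance 0.05 reads), and totals are those of the listed genes. Genes were tested with limma 3.58.1 (R 4.3.3, trend and robust variance) on log2(CPM + 0.5), with genotype as the term, a minimum mean CPM of 0.1 that removed no gene, and Benjamini-Hochberg adjustment over all genes. Fold changes are on that scale and understate those of low genes. An alternative, called the study's rule here, put the study's cut-offs (an FDR under 0.001 and a change of at least 1.5-fold) on the limma fit. The study itself used edgeR on fewer brains and reported differentially expressed genes. The edgeR fit made here was not read at these cut-offs. Permutation tests were two-sided with 100000 resamples (Python 3.11.15, numpy 2.4.6). Correlations used log2(CPM + 0.5) minus the genotype mean, with Benjamini-Hochberg adjustment over 80 marker pairs and over 45 gene pairs, the latter added after seeing the data.

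Named were all 10 genes, every called gene of the iron and heme list, the gene with the smallest p in each of its groups, and the most abundant gene of each marker list. *Cldn5*, *Gm10116* and *Fth-ps2* were named after their values were seen. Alternatives were pseudocounts of 0.1 and 1, a mean CPM of at least 1 or no filter, median-ratio scaling, labelled sex or *Ddx3y* added to the model, the replicate number as a block, leaving out each library, and count tests of the recovered reads by DESeq2 1.42.0 and edgeR 4.0.16. Added after seeing the data were a lowess correction for GC content and transcript length within each library (14652 genes), a fit of the 11 libraries whose *Xist* and *Ddx3y* go with the sex label, and *Ftl1* summed with *Gm10116*. Lengths and coordinates are those of GENCODE M21, which matched 17128 of 17211 genes, and a transcript length is that of the longest principal transcript. The limma step was tested on simulated data.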

Additional observations from a re-analysis of the deposited data

Results flagged for a closer look

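A sample far from the rest of its group was sought for the 10 iron genes and the 8 other genes named from the iron and heme list, in 36 groups of 10 mice, and 2 were found. Chance alone flags about 1 in 20 such groups. *Slc40a1* in C57BL/6 mouse 6 stood at 5.19 CPM, with the next lowest C57BL/6 mouse at 7.03 CPM. Without this mouse the log2 fold change of *Slc40a1* was -0.23 and narrowly not called (limma FDR = 0.0507). *Skp1a* in C57BL/6 mouse 8 stood at 257 CPM, with the next highest C57BL/6 mouse at 230.0 CPM.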

How the results depend on the processing

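The count of 1 called among the 10 iron genes held under each pseudocount, filter, scaling, covariate, edgeR and DESeq2 setting and under the replicate block. It was 0 with GC content and transcript length corrected, 0 in the fit of 11 libraries whose sex label and RNA were in accord (1 C57BL/6 against 10 *Winnie*, where the lone mouse is assumed to vary like the others), 0 under the study's rule, 6 at an unadjusted p under 0.05, and 0 to 2 when a library was left out. The 62 iron and heme genes gave 3 calls with a mean CPM of at least 1, with median-ratio scaling and with edgeR, 6 with DESeq2, 13 at an unadjusted p under 0.05, 0 under the replicate block, the correction, the 11 libraries and the study's rule, and 0 to 5 with a library left out. Over all genes, 434 calls became 227 under the replicate block, 977 with DESeq2, 1 in the 11 libraries, 0 under the study's rule and 3030 at an unadjusted p under 0.05, and ranged from 169 (without C57BL/6 mouse 5) to 694 (without C57BL/6 mouse 10). Replicate numbers did not pair the mice, since same-numbered mice had correlations of their deviations from -0.34 to 0.17 with 2 of 10 pairs above 0.1 and 0 mice closest to their own number. Under the block *Ftl1* was called (FDR 0.0216) and *Epas1* was not (FDR 0.0646). Direction reversed for *Ireb2* with the correction (-0.025) and in the 11 libraries (-0.085), for *Hmox1* in the 11 libraries (-0.021) and for *Aco1* without *Winnie* mouse 5 (0.0047, in a range from -0.041 over the libraries left out), none of them called. The cause of these shifts was not tested. *Slc40a1* and *Hmox1*, on 52 to 196 reads per library, carry the largest counting error of the 10 genes.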
